A study of Homo sapiens with 6 samples.

Results

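The mitochondrial ribosome is the machine that translates the messenger RNAs of mitochondrial DNA, and its products are core subunits of the respiratory chain and the ATP synthase. Its ribosomal RNAs come from mitochondrial DNA, whereas its proteins are encoded in the nucleus, made by cytosolic ribosomes and imported. MRPL genes encode proteins of the large subunit, which joins amino acids, and MRPS genes encode proteins of the small subunit, which reads the messenger RNA. The transcription factor MYC is known for acting on many genes of ribosome and mitochondrial biogenesis, largely through a DNA motif called the E-box. Genes were taken as members where their symbol starts with MRPL or MRPS followed by a number, whatever their signal, and each was represented by the probe set with a single symbol and the highest mean. This gave 74 members among 18417 measured genes, namely 73 protein-coding genes on 21 chromosomes and the transcribed pseudogene MRPS31P5. The RefSeq annotation lists 77 protein-coding genes of the family, and the other 4 of them, MRPL51, MRPS24, MRPS28 and MRPS6, were read only by probe sets shared with another gene.

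Expression was measured on 6 Affymetrix Gene ST arrays, 2 biological replicates for each of 3 near isogenic human cell lines, as log2 probe set signals (log2 signal below). BJELM are transformed cells made from BJEL by retroviral transfer of MYC fused to the hormone-binding part of the estrogen receptor (MYC-ER), and they were kept in 4-hydroxytamoxifen, which activates the fusion, with G-418, hygromycin and puromycin. BJEL are immortalized, pretransformed cells that carry hTERT, the catalytic component of telomerase, and the SV40 early region, and were grown with G-418 and hygromycin. BJ are primary foreskin fibroblasts, grown without these additions. Each introduced gene and the drugs that go with it cannot be told apart, and neither source names separate clones. In bulk RNA, a change in the amount of RNA per cell and a change in the mix of cells cannot be told apart either.

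The labels were checked against the introduced genes and cell type markers. TERT had log2 signals of 10.84 and 10.78 on the arrays labelled BJELM and of 10.71 and 10.97 on the BJEL arrays, against 7.77 and 7.88 on the BJ arrays. MYC had 9.57 and 8.90 on the arrays labelled BJELM, 10.22 and 10.12 on the BJEL arrays and 9.47 and 9.61 on the BJ arrays. The MYC signal was thus lower on the arrays labelled BJELM than on the BJEL arrays by -0.93 (log2, adjusted p = 0.0444), which goes against the label, and every direction below that involves BJELM rests on the label. The study's own list of transcription factors also gives MYC a lower expression ratio to BJ in BJELM than in BJEL. The arrays do not measure the MYC-ER protein, and how far the MYC probe set reads the introduced MYC-ER was not tested. By Western blot, the study reports MYC-ER overexpression at the tumorigenic step. It also reports RT-qPCR of MYC and TERT, and apoptosis after treatment with the ligand TRAIL only in BJELM cells. These checks were made on the cell lines, not on the array labels, and were not analysed here. The fibroblast markers VIM and FN1 stayed in the top percentile of genes in all 3 lines, while 9 of 10 fibroblast markers fell in BJELM against BJ (median -1.74) and 8 of 10 in BJEL against BJ (median -1.49). Of the leukocyte markers, PTPRC, which defines these cells, was at 4.44 to 4.48 in each line and CD3E at 5.22 to 5.23, whereas CD14 lay between 6.69 and 7.05, and CD68 was high, at 10.28 in BJELM, 11.36 in BJEL and 11.32 in BJ. Among the others, the 4 endothelial markers lay between 5.01 and 5.88 over the 3 lines and the 3 melanocyte markers between 4.45 and 5.54. Of these, 0 passed the test, which compares lines and does not tell whether a marker is expressed. The epithelial markers EPCAM and CDH1 lay between 5.41 and 5.72, while KRT18 was at 11.21 in BJELM, 10.95 in BJEL and 11.92 in BJ, and 1 of 7 epithelial markers (KRT19, -1.65) and 1 of 4 leukocyte markers (CD68, -1.04) fell in BJELM against BJ. Array medians lay between 6.37 and 6.46, and replicate arrays correlated across genes at 0.992 for BJELM, 0.994 for BJEL and 0.995 for BJ. The part of the falling fibroblast markers in the results below was not tested.

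The mitochondrial ribosomal protein genes were higher in the derived lines, and 0 members fell in any comparison. The median log2 signal of the 74 members was 10.02 and 9.95 on the arrays labelled BJELM, 9.55 and 9.49 on the BJEL arrays and 9.27 and 9.30 on the BJ arrays, so that the 3 lines did not overlap in this value. A gene is said to have risen or fallen only if limma's p-value, adjusted over all 18417 genes, was below 0.05. Differences are in log2 units, with their SE and n = 2 arrays per line. In BJELM against BJ, 50 of 74 members rose, with a median difference of 0.64, which is a 1.55-fold change. By direction alone, 72 were higher (97.3%, against 52.1% of all genes). Among all genes, 15.1% rose and 13.1% fell in that comparison, and the median difference was 0.01. At a minimum of 2-fold, 13 members rose, against 4.09% of all genes. At an unadjusted p under 0.05, limma gave 62 members higher and 0 lower, and 6873 of all 18417 genes in either direction. The methods' t-test in its plain form called 0 members in either direction after Benjamini-Hochberg adjustment. With 2 arrays per line and 18417 genes that test has little power, so this 0 says little about the members.

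**Figure D1:**
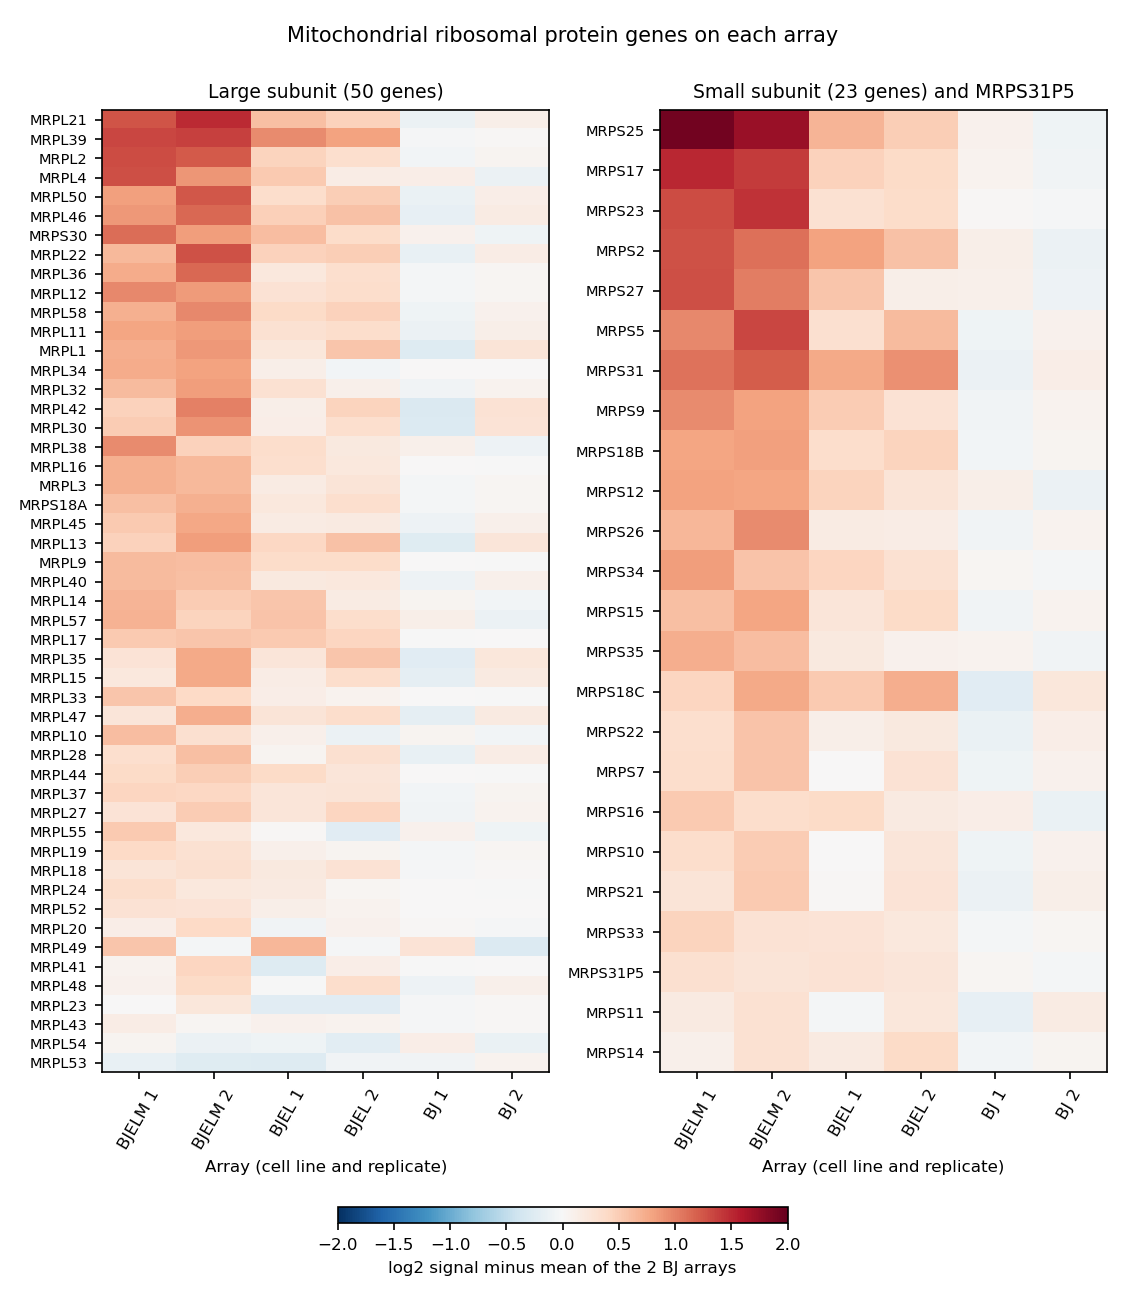
Each row is a gene and each column an array, with the log2 signal minus the mean of the BJ arrays in color, from blue (lower) to red (higher), and genes sorted by the difference of BJELM from BJ. The columns labelled BJELM are the reddest, the BJEL columns are paler, and for 2 members, MRPL53 and MRPL54, the mean of the arrays labelled BJELM is below that of the BJ arrays.

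The arrays could also be read in order. Both arrays labelled BJELM lay above both BJEL arrays, which lay above both BJ arrays, for 41 of 74 members (55.4%), whereas 8.38% of all genes had that order. The opposite order was seen for 0 members and 7.63% of all genes. Taken pair by pair, both arrays of the derived line lay above both BJ arrays for 69 members in BJELM against BJ (93.2%, all genes 31.7%) and for 54 in BJEL against BJ (73.0%, all genes 29.2%). For BJELM against BJEL it was 53 members (71.6%, all genes 28.8%). These orders share arrays and are given as descriptions. Members are mostly well-expressed genes, and 70 of 74 were at or above the median level of all genes (7.26). Among the 9209 genes at or above it, 24.5% rose in BJELM against BJ with a median of 0.04, and 49 of those 70 members rose with a median of 0.65.

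Promoters were read because the members moved together. The RefSeq promoter table (GRCh38.p14) held windows of 300 bases, 250 before and 50 after the gene start, for 66 of the 74 members. On either strand, CCGGAAG, the letters bound by ETS factors such as GABPA, were found in 28 of these 66 windows (42.4%), compared with 14.2% of 15843 protein-coding promoters and 10.7% of all 27305. AAGATGGCG, bound by the factor YY1, was found in 12 (18.2%), compared with 2.7% of protein-coding promoters and 1.8% of all. The E-box CACGTG was found in 6 windows (9.1%, against 8.9% of protein-coding and 7.4% of all promoters), and the related CACGCG in 10 (15.2%, against 14.8% and 11.4%). GCATGCGC, part of the site of the factor NRF1, was found in 6 (9.1%, against 4.3% and 3.3%), and TATAAA, the TATA box, in 2 (3.0%, against 9.6% of protein-coding promoters). No motif contains another, though neighboring matches can share letters, and a match describes letters, not a bound site. The median GC content was 60.2% in the member windows, against 62.7% in protein-coding and 58.3% in all windows.

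**Figure D2:**
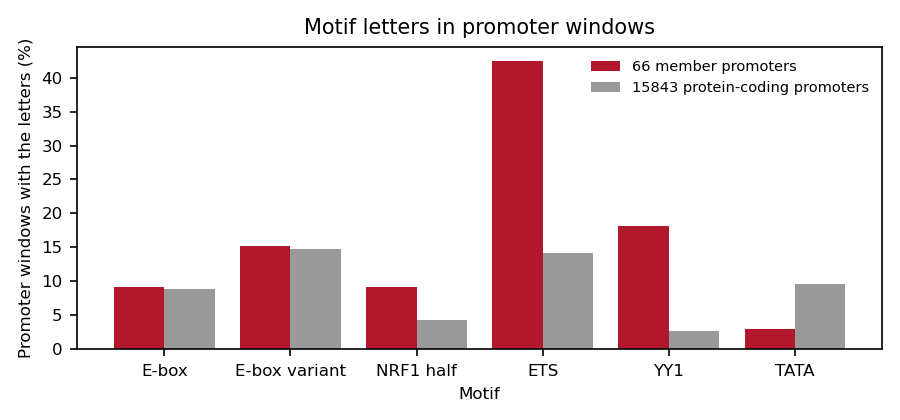
Bars give the percent of promoter windows that hold each motif's letters on either strand, in red for the 66 member windows and in gray for 15843 protein-coding windows. The red bar is taller than the gray one for the ETS letters (42.4% and 14.2%) and the YY1 letters (18.2% and 2.7%), and the E-box bars are nearly level (9.1% and 8.9%).

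The windows of 6 members show how these letters sit, from 120 bases before the start to 30 after it, with the searched motifs in capitals. Among members whose match lies within this stretch, MRPL46 and MRPS30 had the largest differences of BJELM from BJ with the YY1 letters, MRPS23 and MRPS31 with the ETS letters, and MRPL36 with the E-box, and MRPL53 had the lowest difference of the 66. They lie at chr15:88467359-88467508 (minus strand), chr5:44808827-44808976 (plus strand), chr17:57850015-57850164 (minus strand), chr13:40771161-40771310 (minus strand), chr5:1799808-1799957 (minus strand) and chr2:74472651-74472800 (minus strand), and each is printed 5′ to 3′ in the direction of the gene.
MRPL46: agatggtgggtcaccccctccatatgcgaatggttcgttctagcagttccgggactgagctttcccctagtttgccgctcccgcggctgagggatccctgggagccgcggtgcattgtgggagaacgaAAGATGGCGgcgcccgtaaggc
MRPS30: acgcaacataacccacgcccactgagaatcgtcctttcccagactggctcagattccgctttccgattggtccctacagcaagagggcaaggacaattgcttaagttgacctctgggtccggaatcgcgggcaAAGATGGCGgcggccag
MRPS23: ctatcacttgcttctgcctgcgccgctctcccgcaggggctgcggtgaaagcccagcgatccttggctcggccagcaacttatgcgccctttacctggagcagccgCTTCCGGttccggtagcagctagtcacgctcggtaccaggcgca
MRPS31: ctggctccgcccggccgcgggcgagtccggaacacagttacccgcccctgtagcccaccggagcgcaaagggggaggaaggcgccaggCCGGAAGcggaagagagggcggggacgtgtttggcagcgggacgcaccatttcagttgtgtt
MRPL36: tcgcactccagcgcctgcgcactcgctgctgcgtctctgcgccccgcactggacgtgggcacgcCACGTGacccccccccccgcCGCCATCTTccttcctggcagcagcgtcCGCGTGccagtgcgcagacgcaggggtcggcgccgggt
MRPL53: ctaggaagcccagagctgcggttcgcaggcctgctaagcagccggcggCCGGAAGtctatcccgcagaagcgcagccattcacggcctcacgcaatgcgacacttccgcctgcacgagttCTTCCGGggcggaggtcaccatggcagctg
In MRPL46 and MRPS30 the YY1 letters begin at positions 9 and 14 after the start. In MRPS23 and MRPS31 the ETS letters begin at -14 and -32, on the opposite strand in MRPS23. MRPL36 holds the E-box at -56, the YY1 letters on the opposite strand at -36 and the letters CACGCG on the opposite strand at -8. MRPL53, whose difference of BJELM from BJ was -0.20, holds the ETS letters at -72 and again at 1. The ETS letters were thus not confined to members with large differences. These windows were chosen by motif and difference, so they do not compare members with and without the letters.

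Across the 66 members, those with the ETS letters had a median difference of BJELM from BJ of 0.48 and those without had 0.74. Over the 14237 measured genes with a promoter window the order was the other way, at 0.09 with these letters and 0.01 without. For the YY1 letters the medians were 0.78 with and 0.60 without among members, and 0.18 with and 0.01 without over those genes. For the E-box they were 0.62 with and 0.66 without among members (0.03 and 0.01 over those genes), and for CACGCG 0.64 with and 0.66 without (0.06 and 0.01). The 37 ETS matches in member windows had a median position of -21, and 75.7% of them began within 60 bases before the start or after it, against 58.4% in protein-coding windows. The 13 YY1 matches had a median position of 9, after the start, with 76.9% in that stretch, against 76.3% in protein-coding windows. These medians are descriptions over members that share promoters' base composition and arrays, and no test was made of them.

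In BJEL against BJ, which asks what came with hTERT and the SV40 early region, 10 members rose by limma and 64 did not pass the test. The median difference of all 74 was 0.28, with the middle 50% between 0.15 and 0.39, and 68 were higher (91.9%, against 46.5% of all genes). The 10 that rose are 13.5% of the members, whereas 10.4% of all genes rose, 7.13% fell, and the median of all genes was -0.02. Among the 9209 genes at or above the median level, 16.9% rose with a median of 0.07. Of the 70 members at that level, 10 rose with a median of 0.28. By this fit their count was thus not above that of genes of like level. With a term for the replicate number in the fit (the replicate block), 40 of 74 members rose, when 18.3% of all genes did. Without that term, 0 members rose at 2-fold while 2.89% of all genes did. By limma's unadjusted p under 0.05, 33 members were higher and 0 lower, and 5638 of all 18417 genes differed in either direction. The count rested on single arrays, being 3 without either BJ array, 2 without BJEL replicate 1 and 4 without BJEL replicate 2, when 4.03% to 6.29% of all genes rose.

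MRPL39, a large subunit protein found in mitochondrial but not bacterial ribosomes, had the largest rise in this comparison. Its log2 signals were 10.98 and 10.84 on the BJEL arrays, against 10.01 and 10.07 on the BJ arrays, a difference of 0.87 ± 0.09 (adjusted p = 0.00246). MRPS31, a small subunit protein, had 7.86 and 8.02 on the BJEL arrays, against 6.98 and 7.23 on the BJ arrays, and rose by 0.83 ± 0.12 (adjusted p = 0.00705). Both genes were separate between the lines on all arrays. MRPS31 has a transcribed copy, MRPS31P5, which had 5.80 and 5.75 on the BJEL arrays against 5.55 and 5.48 on the BJ arrays (difference 0.26, adjusted p = 0.0858), and cross-reading of the pair was not tested. MRPS2, a small subunit protein with a bacterial counterpart, had 10.96 and 10.73 on the BJEL arrays, against 10.26 and 10.04 on the BJ arrays, and rose by 0.70 ± 0.13 (adjusted p = 0.0160). MRPL17, next to the exit tunnel of the large subunit, had 11.43 and 11.33 on the BJEL arrays, against 10.90 and 10.91 on the BJ arrays, and rose by 0.48 ± 0.083 (adjusted p = 0.0132).

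The other 6 that rose in BJEL were MRPS25 (0.58), MRPL21 (0.53), MRPS17 (0.42), MRPS18B (0.40), MRPL2 (0.39) and MRPL9 (0.38), with adjusted p between 0.0222 and 0.0377. Of the 10, MRPL39 and MRPS31 passed the test with each array left out in turn, and the other 8 lost it without at least 1 array. MRPL2 and MRPS17 also lost it with a second quantile normalization and with an intensity trend, and MRPL21 and MRPS18B with that normalization. The lowest difference was that of MRPL23, a protein at the exit of the large subunit's tunnel, with 9.18 and 9.18 on the BJEL arrays against 9.37 and 9.43 on the BJ arrays (-0.22 ± 0.099, adjusted p = 0.193).

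**Figure D3:**
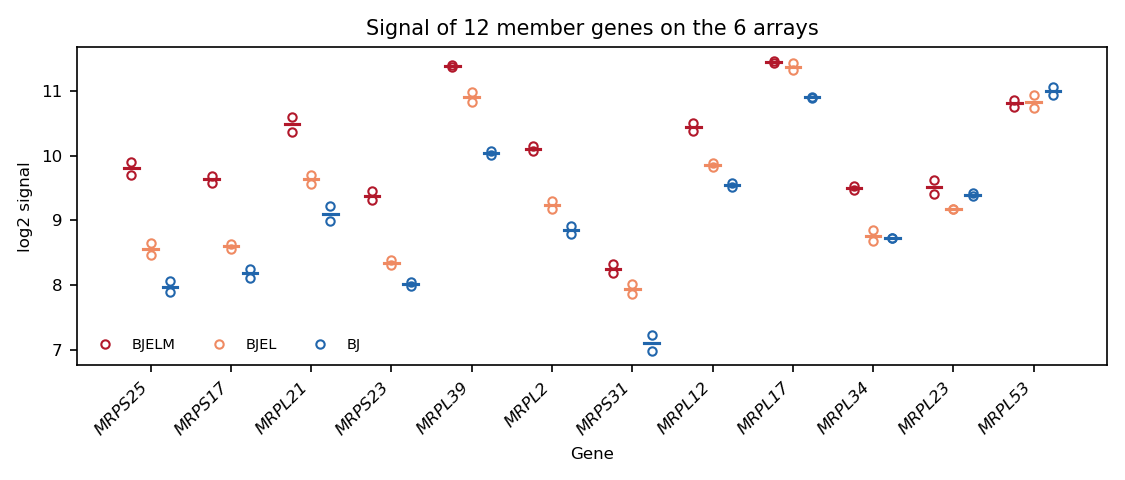
Open circles are the log2 signals of the 2 arrays of a line and short bars their mean, for 12 members, with the lines labelled BJELM, BJEL and BJ from left to right within each gene. MRPS25, MRPS17 and MRPS23 have their wider gap between BJELM and BJEL, MRPL39, MRPS31 and MRPL17 between BJEL and BJ, and the MRPL53 arrays lie close together.

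In BJELM against BJEL, which asks what came with MYC-ER and 4-hydroxytamoxifen, 18 members rose by limma and 56 did not pass the test. They are 24.3% of the members, whereas 4.53% of all genes rose and 6.28% fell. Among the 9209 genes at or above the median level, 6.94% rose with a median of -0.03, and 18 of the 70 members at that level rose. The median difference of the 74 members was 0.38, against 0.03 for all genes, with the middle 50% between 0.18 and 0.49. By direction alone, 70 members were higher (94.6%, against 56.4% of all genes). At 2-fold, 3 members rose, against 0.923% of all genes. By limma's unadjusted p under 0.05, 41 were higher and 0 lower, and 4687 of all 18417 genes differed in either direction. The count was 10 without either BJ array, 6 without BJEL replicate 1, 5 without BJEL replicate 2 and 6 without BJELM replicate 2, when 1.27% to 3.13% of all genes rose, and 13 without BJELM replicate 1. With the BJ arrays kept out of the fit it was also 10.

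The 3 members past 2-fold all belong to the small subunit. MRPS25 (probe set 8085531), a small subunit protein with no bacterial counterpart, had log2 signals of 9.91 and 9.70 on the arrays labelled BJELM, against 8.65 and 8.46 on the BJEL arrays, and rose by 1.25 ± 0.12 (adjusted p = 0.00423). MRPS23 (probe set 8016870), another such protein, had 9.31 and 9.46 on the arrays labelled BJELM, against 8.31 and 8.38 on the BJEL arrays, and rose by 1.04 ± 0.091 (adjusted p = 0.00346). MRPS17 (probe set 8132922), which has a bacterial counterpart, had 9.69 and 9.58 on the arrays labelled BJELM, against 8.64 and 8.56 on the BJEL arrays, and rose by 1.04 ± 0.094 (adjusted p = 0.00371). In each of the 3 the gap between lines was several times the gap between replicate arrays. With each array left out in turn, the difference of MRPS25 lay between 1.15 and 1.36. MRPS23 was at 0.96 without BJELM replicate 2 and MRPS17 at 0.98 without BJELM replicate 1, both under 2-fold.

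Among large subunit genes, MRPL2, a core protein at the peptidyl transferase center, had 10.15 and 10.07 on the arrays labelled BJELM, against 9.30 and 9.18 on the BJEL arrays (0.87 ± 0.095, adjusted p = 0.00558). MRPL21 had 10.37 and 10.60 on the arrays labelled BJELM, against 9.71 and 9.57 on the BJEL arrays (0.85 ± 0.13, adjusted p = 0.0132). MRPL34 had 9.47 and 9.53 on the arrays labelled BJELM, 8.85 and 8.68 on the BJEL arrays and 8.73 and 8.73 on the BJ arrays, and rose by 0.73 ± 0.092 in BJELM against BJEL (adjusted p = 0.00793), while its BJEL and BJ arrays overlapped. MRPL12, a stalk protein that recruits translation factors, had 10.50 and 10.39 on the arrays labelled BJELM, against 9.83 and 9.89 on the BJEL arrays (0.59 ± 0.088, adjusted p = 0.0132). MRPS27, a small subunit protein of the pentatricopeptide repeat family, rose by 0.82 (adjusted p = 0.0367), MRPL36 by 0.68 (adjusted p = 0.0385) and MRPS26 by 0.65 (adjusted p = 0.0231).

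MRPL12, MRPL21, MRPS26, MRPL36 and MRPS27 lost the call without at least 1 array, and MRPS27 and MRPL36 also when the BJ arrays were kept out of the fit. MRPL36 has a second probe set that ran differently at the lower lines, with log2 signals of 11.18 and 11.18 on the arrays labelled BJELM, 10.54 and 10.61 on the BJEL arrays and 10.76 and 10.43 on the BJ arrays. Its BJEL and BJ arrays overlapped, whereas those of the probe set used here did not (10.61 and 10.73 in BJEL, against 10.35 and 10.44 in BJ). The 2 probe sets of MRPL20 and the 3 of MRPS18B held identical values.

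In BJELM against BJ, both steps together, the rise was seen in each part of the ribosome. Of the 23 small subunit genes, 17 rose (73.9%, median 0.70), and on all 23 both arrays labelled BJELM lay above both BJ arrays. Of the 50 large subunit genes, counted with MRPS30 and MRPS18A, which sit in that subunit despite their names, 32 rose (64.0%, median 0.61) and 45 had that order of arrays. All 9 small subunit genes numbered above 21, which mostly lack a bacterial counterpart, rose (median 0.80), and 7 to 8 did with 1 array left out. Of the 14 numbered up to 21, 8 rose (median 0.64). In the next counts MRPS18A is placed with the large subunit genes numbered up to 36, and MRPS30, despite its number, with those above 36. Among large subunit genes, 20 of 29 numbered up to 36 rose (median 0.64) and 12 of 21 numbered above 36 (median 0.48), and these counts were 13 to 19 and 6 to 11 with 1 array left out. Over all members the count was 33 without BJ replicate 1, when 9.24% of all genes rose, and between 41 and 45 without any other array.

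**Figure D4:**
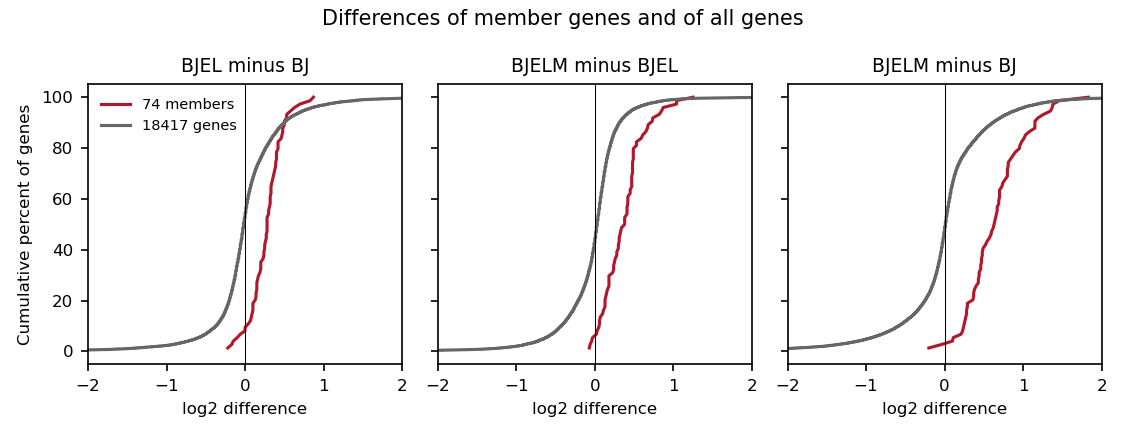
Curves give the cumulative percent of genes at or below a log2 difference, in red for the 74 members and in gray for all 18417 genes, in each comparison. The red curve lies to the right of the gray one over most of its course, with medians of 0.28, 0.38 and 0.64 against -0.02, 0.03 and 0.01, while it lacks the far tails of the gray curve.

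The members with the 2 largest differences, MRPS25 and MRPS17, belong to the small subunit. MRPS25 had log2 signals of 9.91 and 9.70 on the arrays labelled BJELM, against 8.06 and 7.89 on the BJ arrays, and rose by 1.83 ± 0.12 (adjusted p = 0.000347), which is a 3.56-fold change. MRPS17 had 9.69 and 9.58 on the arrays labelled BJELM, against 8.25 and 8.11 on the BJ arrays (1.46 ± 0.094, adjusted p = 0.000333). MRPS23 had 9.31 and 9.46 on the arrays labelled BJELM, against 8.04 and 7.98 on the BJ arrays (1.37 ± 0.091, adjusted p = 0.000347). MRPS2 (1.19), MRPS27 (1.15), MRPS31 (1.15) and MRPS5 (1.15) also rose by more than 2-fold, with adjusted p between 0.00132 and 0.00462. MRPS12, which lies in the decoding region, had 8.90 and 8.88 on the arrays labelled BJELM, against 8.21 and 7.97 on the BJ arrays (0.80 ± 0.11, adjusted p = 0.00372). MRPS7, a protein of the head of the subunit, had 9.39 and 9.62 on the arrays labelled BJELM, against 8.96 and 9.13 on the BJ arrays, and did not pass the test (0.46 ± 0.14, adjusted p = 0.0553).

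Several small subunit genes are known from inherited disorders of mitochondrial translation. MRPS34 had 10.38 and 10.11 on the arrays labelled BJELM, against 9.58 and 9.50 on the BJ arrays, and rose by 0.70 ± 0.12 (adjusted p = 0.00671). MRPS22 rose by 0.46 ± 0.13 (adjusted p = 0.0414), a call lost under 7 of the alternative settings. MRPS16 had 10.35 and 10.17 on the arrays labelled BJELM, against 9.95 and 9.69 on the BJ arrays, and did not pass the test (0.44 ± 0.13, adjusted p = 0.0543), although the arrays did not overlap. The lowest difference of the small subunit was that of MRPS14, with 9.74 and 9.94 on the arrays labelled BJELM, against 9.58 and 9.69 on the BJ arrays (0.21 ± 0.12, adjusted p = 0.266).

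In the large subunit, MRPL21 had log2 signals of 10.37 and 10.60 on the arrays labelled BJELM, against 8.99 and 9.22 on the BJ arrays, and rose by 1.38 ± 0.13 (adjusted p = 0.000876). MRPL39 had 11.38 and 11.41 on the arrays labelled BJELM, against 10.01 and 10.07 on the BJ arrays (1.35 ± 0.09, adjusted p = 0.000351). MRPL2 rose by 1.26 ± 0.095 (adjusted p = 0.000485) and MRPL4, which lines the exit tunnel, by 1.08 ± 0.19 (adjusted p = 0.00849). Among the other core proteins, MRPL16 rose by 0.69 ± 0.087 and MRPL3 by 0.67 ± 0.086 (adjusted p = 0.00250 and 0.00252). The stalk proteins MRPL12 and MRPL11 rose by 0.90 ± 0.088 and 0.81 ± 0.10 (adjusted p = 0.00105 and 0.00253). MRPL10, the base of the stalk, had 8.70 and 8.40 on the arrays labelled BJELM, 8.18 and 7.97 on the BJEL arrays and 8.14 and 8.02 on the BJ arrays. Its rise of 0.47 ± 0.13 in BJELM against BJ (adjusted p = 0.0446) was lost under 8 of the alternative settings.

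MRPL58, a peptidyl-tRNA hydrolase that frees stalled ribosomes, had 10.38 and 10.63 on the arrays labelled BJELM, against 9.58 and 9.75 on the BJ arrays (0.84 ± 0.12, adjusted p = 0.00372). MRPL45, which faces the inner membrane at the tunnel exit, rose by 0.65 ± 0.12 (adjusted p = 0.00969, and not without BJ replicate 1), and MRPL44, which has the fold of an RNase III, by 0.44 ± 0.092 (adjusted p = 0.0151, and not without either BJ array or BJELM replicate 2). MRPS30 rose by 0.98 ± 0.14 (adjusted p = 0.00387). Of the 3 MRPS18 paralogs, MRPS18B rose by 0.81 ± 0.088 and MRPS18A by 0.66 ± 0.094 (adjusted p = 0.00148 and 0.00374). MRPS18C had 7.12 and 7.44 on the arrays labelled BJELM, 7.22 and 7.41 on the BJEL arrays and 6.46 and 6.92 on the BJ arrays, and did not pass the test in BJELM against BJ (0.59 ± 0.19, adjusted p = 0.0646).

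Of the 24 members that did not pass the test in BJELM against BJ, 2 were lower. MRPL53, a large subunit protein with no bacterial counterpart, had 10.86 and 10.76 on the arrays labelled BJELM, 10.74 and 10.94 on the BJEL arrays and 10.94 and 11.07 on the BJ arrays (-0.20 ± 0.11, adjusted p = 0.246). MRPL54 had 7.28 and 7.12 on the arrays labelled BJELM, against 7.36 and 7.10 on the BJ arrays (-0.04 ± 0.12, adjusted p = 0.892), and the groups overlapped. MRPL43 and MRPL23 followed with differences of 0.10 and 0.11. MRPL49 had the largest SE of the members (0.31), with 10.07 and 9.47 on the arrays labelled BJELM, 10.18 and 9.48 on the BJEL arrays and 9.78 and 9.24 on the BJ arrays, so that all 3 lines overlapped. MRPL42 and MRPL30 had differences of 0.73 and 0.70 that did not pass the test, with SE of 0.26 and 0.22. The probe set that MRPS6 shares with SLC5A3 had 10.49 and 10.57 on the arrays labelled BJELM, 9.63 and 9.67 on the BJEL arrays and 9.28 and 9.43 on the BJ arrays, and the 2 genes cannot be told apart in it.

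Other genes of mitochondrial gene expression were read beside the members, from lists that are not independent of earlier results of these data. In BJELM against BJ, 18 of 26 assembly and rRNA modification factors of the mitochondrial ribosome rose (69.2%, median 0.61) and 0 fell, where 15.1% of all genes rose. MRM3, which methylates the large ribosomal RNA, had 9.12 and 8.65 on the arrays labelled BJELM, against 7.41 and 7.34 on the BJ arrays (1.51 ± 0.19, adjusted p = 0.00248), and MTERF3 rose by 1.01, DDX28 by 0.94 and MRM2 by 0.93. Of 14 translation factors and helpers, 11 rose (78.6%, median 0.73). They include LRPPRC, which stabilizes mitochondrial messenger RNAs (1.06), the elongation factor TUFM (1.03), the formyltransferase MTFMT (0.89) and the initiation factor MTIF2 (0.88). Of 19 mitochondrial tRNA synthetases and amidotransferase subunits, 12 rose (63.2%, median 0.50), among them MARS2 (0.97), NARS2 (0.96), WARS2 (0.89) and GATB (0.81). Of 4 subunits of the ribosome under other names, PTCD3 (0.92) and DAP3 (0.51) rose. With 1 array left out these counts were 11 to 18, 8 to 10, 7 to 12 and 1 to 2.

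For transcription and replication of mitochondrial DNA, 9 of 12 genes rose in BJELM against BJ (median 0.79, and 8 to 10 with 1 array left out). TFAM, which packages and transcribes mitochondrial DNA, had 9.57 and 9.91 on the arrays labelled BJELM, 9.36 and 9.16 on the BJEL arrays and 7.73 and 7.84 on the BJ arrays. It rose by 1.96 in BJELM against BJ and by 1.48 in BJEL against BJ (adjusted p = 0.000431 and 0.00189). POLG2, the accessory subunit of the mitochondrial DNA polymerase, rose by 1.60, the nuclease MGME1 by 1.35 and the single-strand binding protein SSBP1 by 1.04. Of 21 import genes, 11 rose (median 0.53, and 6 to 10 with 1 array left out), including TIMM8A (1.29), GRPEL1 (1.05), TIMM44 (0.95) and TOMM40 (0.83).

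The respiratory chain and cytosolic ribosome lists had lower medians, though most of their genes were higher too. By direction alone, 65 of 69 and 52 of 58 were higher in BJELM against BJ (94.2% and 89.7%, all genes 52.1%). In BJELM against BJEL the shares were 79.7% and 93.1% (all genes 56.4%), and in BJEL against BJ 79.7% and 60.3% (all genes 46.5%). Of 69 nuclear-encoded subunits of the respiratory chain and ATP synthase, 20 rose in BJELM against BJ (29.0%, median 0.24, and 7 to 14 with 1 array left out), and 0 fell. NDUFB9 rose by 1.07 and NDUFAB1, which is also the mitochondrial acyl carrier protein, by 0.78, both of complex I, COX7B of complex IV by 1.01 and CYC1 of complex III by 0.62. Of 58 cytosolic ribosomal protein genes, 8 rose (13.8%, median 0.18, and 3 to 5 with 1 array left out), where 15.1% of all genes rose. RPS24 (1.24), RPL23 (0.88), RPS21 (0.72) and RPS7 (0.61) were the largest. The median log2 signal of this list lay between 12.03 and 12.26 on the arrays, and that of the members between 9.27 and 10.02. The part of signal level in these differences was not tested. Of 10 regulators of nuclear genes for mitochondrial proteins, 5 rose (median 0.33, and 2 to 3 with 1 array left out), including PPRC1 (0.92), the ETS factor subunits GABPA (0.67) and GABPB1 (0.47), and PPARGC1B (0.57). No difference between these lists and the members was tested.

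The counts in each step were smaller. In BJELM against BJEL, where 4.53% of all genes rose, 7 of 14 translation factors rose (median 0.42), 6 of 19 tRNA synthetases (0.35), 3 of 12 genes for mitochondrial DNA expression (0.32), 3 of 26 assembly factors (0.26) and 4 of 21 import genes (0.33). In that comparison 4 of 69 respiratory chain genes (0.15) and 1 of 58 cytosolic ribosomal genes (0.14) rose. Of 10 regulators, 1 rose and 1 fell (MYC, -0.93), with a median of 0.11, and of 4 subunits under other names 0 rose by limma (median 0.18), with 1 of them at an unadjusted p under 0.05. In BJEL against BJ, where 10.4% of all genes rose, 9 of 26 assembly factors rose (0.35), 6 of 12 genes for mitochondrial DNA expression (0.41), 4 of 19 tRNA synthetases (0.25), 3 of 14 translation factors (0.23) and 3 of 21 import genes (0.31), with 1 of 69 respiratory chain genes (0.10) and 1 of 58 cytosolic ribosomal genes (0.03). Of the 10 regulators 3 rose there (0.18), and of the 4 subunits under other names 1 rose (0.29). The shares of import genes and tRNA synthetases that rose in BJEL against BJ were 14.3% and 21.1%. Leaving out 1 array brought these counts as low as 1 or 0, while the median of each list stayed above 0.

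**Figure D5:**
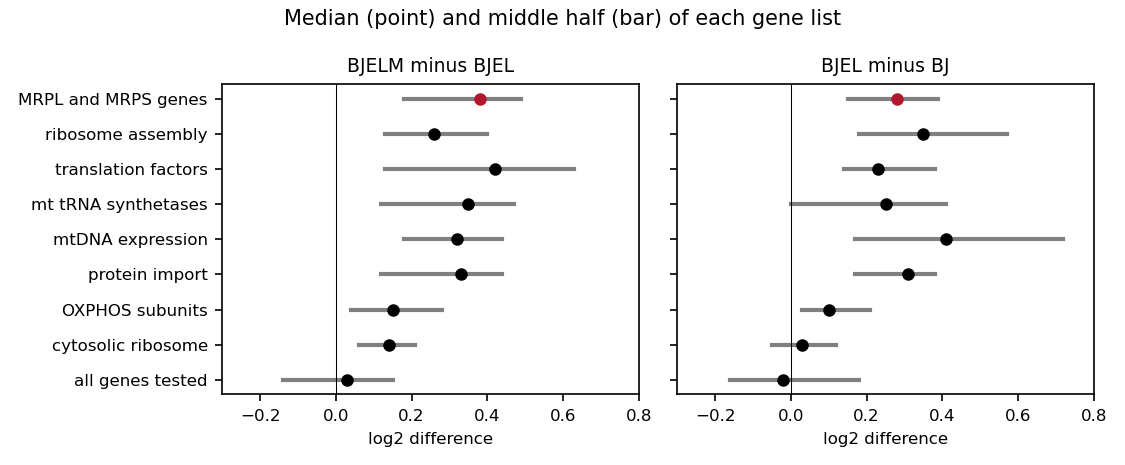
Points are the median log2 difference of each gene list and bars span its middle 50% of genes, for BJELM minus BJEL on the left and BJEL minus BJ on the right. The members have medians of 0.38 and 0.28, the lists for ribosome assembly, translation factors, tRNA synthetases, mitochondrial DNA expression and import between 0.23 and 0.42, and the respiratory chain and cytosolic ribosome lists between 0.03 and 0.15.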

How the data were processed

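Total RNA of 3 cell lines was read on 6 arrays, 2 per line, grouped by the cell line in the labels. Per the submitters' notes, the deposited log2 signals are probe set summaries that the authors obtained by RMA (Affymetrix Expression Console 1.3.1, defaults), which corrects background, equalizes the arrays' distributions and summarizes probes. RMA narrows differences of dim genes and removes any overall shift in RNA amount. An array has no count depth, so the number of arrays limits the precision. The table held 33297 probe sets with 0 missing values. Of these, 19460 carried 1 gene symbol, 1754 several, and 12083 were unlisted. Each gene took the brightest of its probe sets that carry 1 symbol (mean over the arrays), giving 18417 genes, of which 18389 matched RefSeq by Entrez ID.

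Differences were fitted over all 6 arrays with a mean per line (R 4.3.3, limma 3.58.1), 3 residual degrees of freedom and a prior of 3.13, two-sided, with Benjamini-Hochberg adjustment over all genes. On simulated data with 100 changed genes of each size, limma found 83% of those changed by 1.2 (log2) and 28% of those changed by 0.6 when BJEL was set against BJ, with 2 false calls. The shares were 81% and 30% for BJELM against BJEL, with 3 false calls, and 72% and 24% for BJELM against BJ, with 2. They apply to 100 changed genes among 18417. In the arrays more genes passed, with 2790 that rose and 2405 that fell in BJELM against BJ. Recovery with that many changed genes was not tested. Members and lists were chosen with earlier results of these data known. Named members were the 10 largest rises and 5 largest falls past the test per comparison, members with a listed role, and up to 4 per list, by BJELM against BJ. MRPL53, MRPL54, MRPL43, MRPL23, MRPL49, MRPL42, MRPL30, MRPL46 and MRPS14 were named after their values were seen. Alternatives were leaving out each array, only the groups compared, a replicate block, further normalization, an intensity trend, a filter on dim genes, other gene representations, other thresholds and the methods' t-test in its plain form. Protein sequences were not analysed here. Windows of promoters were trimmed for display. The study's chromatin data were left out.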

Additional observations from a re-analysis of the deposited data

How the results depend on the processing

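Every setting left 0 members that fell. The median member difference stayed positive, between 0.23 and 0.30 for BJEL against BJ, 0.29 and 0.40 for BJELM against BJEL, and 0.55 and 0.67 for BJELM against BJ, with 1 array left out. The counts that rose were then 2 to 13, 5 to 13 and 33 to 45. A second quantile normalization gave medians of 0.22 and 0.58 in the comparisons with BJ. With it, 6 members rose in BJEL against BJ, when 8.92% of all genes rose. With the BJ arrays left out of the fit, 10 rose in BJELM against BJEL, when 3.13% of all genes rose. At an adjusted p under 0.01, 2 rose in BJEL against BJ, 5 in BJELM against BJEL and 34 in BJELM against BJ. The share of all genes at that threshold was not computed. At 2-fold the member counts were 0, 3 and 13, when 2.89%, 0.923% and 4.09% of all genes rose. With the methods' t-test at an unadjusted p under 0.05 and 2-fold they were 0, 3 and 10. By that rule 231, 102 and 424 of all 18417 genes rose. The same t-test, in its plain form, gave 0 in each after Benjamini-Hochberg adjustment, where 2 arrays per line leave it little power.

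Replicate arrays share only a number in the labels. Deviations from the group means over all genes correlated at 0.553 between BJELM and BJEL, 0.481 between BJELM and BJ and 0.448 between BJEL and BJ for replicate 1. With the replicate block, 40 members rose in BJEL against BJ, 45 in BJELM against BJEL and 65 in BJELM against BJ, when 18.3%, 10.3% and 21.2% of all genes rose. In BJELM against BJ with the block, 20 of 58 cytosolic ribosomal, 35 of 69 respiratory chain, 23 of 26 assembly and 16 of 21 import genes rose. Of 623 alternative values of named members, 541 kept direction and side of the threshold, 75 lost the call, 7 gained it and 0 changed sign. The cause was not tested. The protein comparison planned for the MRPS18 paralogs was not run.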

Other observations

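Replicate arrays differed in the same direction for many members. In all 3 lines replicate 2 was above replicate 1 for 31 of 74 members (41.9%) and 17.9% of all genes, and replicate 1 was above replicate 2 for 22 members (29.7%) and 29.2% of all genes. MRPL49 was lower on replicate 2 by -0.60 in BJELM, -0.70 in BJEL and -0.54 in BJ, and MRPL42 was higher on it by 0.56, 0.33 and 0.59. The labels name no batch behind these numbers.

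The step sizes also differed among members. The difference of BJELM from BJEL was larger than that of BJEL from BJ for 47 members and smaller for 26. MRPS25, MRPS23 and MRPL34 had differences of 1.25, 1.04 and 0.73 in BJELM against BJEL, beside 0.58, 0.34 and 0.04 in BJEL against BJ. MRPL39, MRPS31 and MRPL17 had 0.49, 0.32 and 0.06 beside 0.87, 0.83 and 0.48. Both differences use the BJEL arrays, so an error in those arrays moves them in opposite directions.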
